A study of Mus musculus with 2 samples.

Results

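Siglecf-positive lung neutrophils were taken as the barcodes of a neutrophil gate that held at least 1 UMI (unique molecular identifier, 1 counted mRNA molecule) of Siglecf. The gate asked of each kept lung barcode that S100a8 and S100a9 together make up at least 0.5% of its UMIs, that Csf3r, Cxcr2, Il1r2 and Mmp9 together have at least 1 UMI, and that C1qa, C1qb, C1qc, Cd79a and Cd3e together have at most 1 UMI. Barcodes with fewer than 200 detected genes, or with a mitochondrial share of UMIs above 10%, were first removed. Of 14028 barcodes in the series, 8481 were from lung, 8194 of these were kept, 1756 passed the gate and 366 were Siglecf-positive. The other 1390 gate barcodes held no Siglecf UMI and served as the reference.

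The study sequenced the 5' ends of mRNA in single cells from 2 tissues, lung and gastrocnemius (GA) muscle, with 1 library per tissue. Per the labels the cells came from TB mice with the genotype entry CAC mouse model, and CD45+ cells were enriched on magnetic beads. The labels give no treatment, age or sex and no number of mice for these libraries, and neither short name was spelled out here. All barcodes described, Siglecf-positive and reference, therefore share library, tissue, model and preparation, and there was no replicate and no test. Intervals are exact 95% intervals and cover counting error only, and levels are CPM, the pooled UMIs of a gene per 1000000 pooled UMIs of the group.

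Siglec-F is a sialic acid-binding lectin of the cell surface with inhibitory motifs in its tail. It is best known from mouse eosinophils and alveolar macrophages, and it has also been described on neutrophils in lung tumours and in inflamed lung tissue. Neutrophils carry their granule mRNAs early, in the bone marrow, and turn to chemokine, cytokine and surface receptor genes after they leave it.

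The barcodes were chosen by their Siglecf, S100, receptor and other-lineage UMIs, so these values are a description, and the Siglecf counts were low. Exactly 1 UMI was found in 231 of the 366, 2 UMIs in 85 and 3 or more in 50, with 7 at most. These 571 UMIs gave 476 CPM in the Siglecf-positive group. The Siglecf-positive barcodes were deeper than the reference, with medians of 2745 and 1977 UMIs and of 1238 and 837 genes. Membership at 1 UMI thus moved with depth, and a Siglecf-zero barcode cannot be told apart from a positive one whose mRNA was missed. At full depth 20.8% of the gate was positive (19.0 to 22.8). After every barcode was thinned to 1000 UMIs, with 199 shallower barcodes left out, 175 of 1557 were positive, or 11.2% (9.71 to 12.9).

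Detection of Siglecf in the gate stood above that in lung cells that should lack the gene. In a T cell gate (Cd3e and Cd3d, 693 barcodes, median 3536 UMIs) 3.46% were positive at full depth and 0.437% after thinning (0.0903 to 1.27). In a B cell gate (Cd79a and Ms4a1, 753 barcodes, median 2426 UMIs) the values were 4.25% and 1.93% (1.06 to 3.21). Pooled Siglecf was 126 CPM over the neutrophil gate, 18.9 CPM in the B cell gate and 9.18 CPM in the T cell gate. The B and T cell values were read as the background of this library.

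Gates set for cells that could carry Siglecf for other reasons gave lower values than the neutrophil gate. An alveolar macrophage gate of 223 barcodes asked for at least 1% of UMIs from Chil3, Ear2, Car4, Marco, Fabp1 and Plet1. The marker list holding these genes summed to 23587 CPM there. The gate itself raised that sum, so it does not show that the barcodes are alveolar macrophages, which was not tested. In this gate Siglecf stood at 37.5 CPM (28.4 to 48.4), and 13.9% of barcodes were positive at full depth against 2.79% after thinning. In a macrophage gate on the C1q genes, with 1355 barcodes, it stood at 16.1 CPM (13.7 to 18.8), and 8.12% and 1.27% were positive. A gate on eosinophil genes took 22 barcodes with 1 Siglecf UMI in all. Those 22 barcodes held lymphocyte markers at 31343 CPM in sum, so they do not stand for eosinophils. The epithelial gate held no Siglecf-positive barcode among 10, which allows a share of up to 30%.

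**Figure D1:**
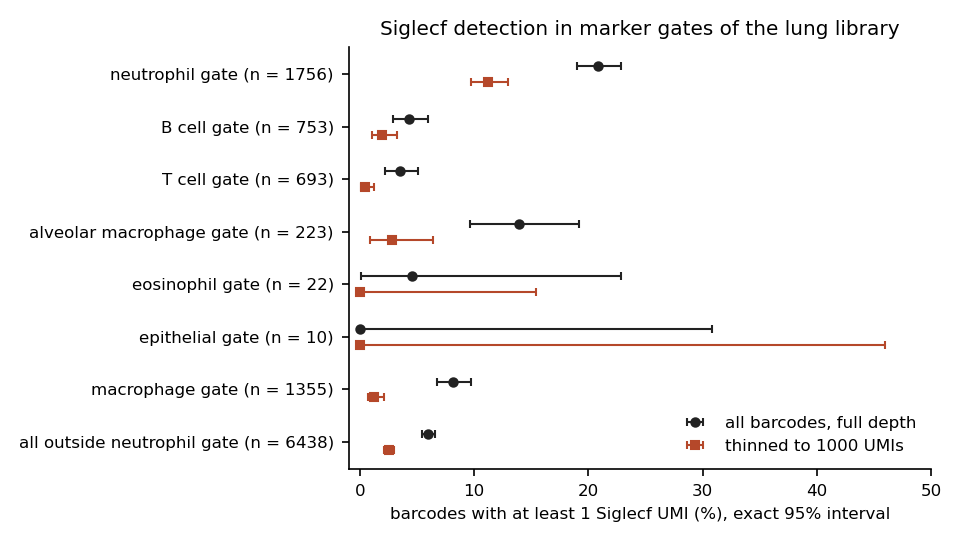
Share of barcodes with at least 1 Siglecf UMI, in percent on the horizontal axis, in each marker gate of the lung library; circles are full depth, squares are after thinning to 1000 UMIs, and bars are exact 95% intervals. The neutrophil gate stands at 20.8% and 11.2%, while the B cell and T cell gates stand at 4.25% and 3.46% before and at 1.93% and 0.437% after thinning.

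The neutrophil gate held 13.3% of the kept UMIs and 49.3% of the kept Siglecf UMIs. Outside it 386 kept barcodes were Siglecf-positive, of which 305 missed the S100 limit, 64 had no receptor UMI and 190 had too many UMIs of other lineages, with overlap. Just outside the S100 limit, at 0.25 to 0.5% of UMIs and with the other criteria met, 49 of 258 barcodes (19.0%) were positive, against 76 of 338 (22.5%) just inside it, at 0.5 to 1%. After thinning these shares were 11.5% and 12.7%. The limit therefore passed through barcodes with a like share of Siglecf, and the 366 are the positive barcodes of the gate, not of the tissue.

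Genes the gate did not use also marked these barcodes as neutrophils. All 15 neutrophil markers outside the gate, among them G0s2, Hdc and Cxcl2, were measured in the Siglecf-positive barcodes. They summed to 37190 CPM, against 49269 CPM in the reference and 7378 CPM outside the gate. None of the 15 had a log2 ratio of Siglecf-positive over reference barcodes above 0, and the median was -0.60. Ly6g, Retnlg and Mmp8 of the list were lower past the size rule given below. Of 10 eosinophil markers, Il5ra, Epx, Prg2, Prg3, Gata1 and Gata2 were at 0, which allows up to 2.50 CPM each, and the whole list summed to 10.8 CPM against 14.4 CPM in the reference. The alveolar macrophage list summed to 1630 and 1579 CPM, with Marco at 1.67 and 4.79 CPM and Fabp1 at 0 and 0.898 CPM. Most of that sum came from Chil3, which neutrophils also express, and from Car4, a membrane carbonic anhydrase, at 678 CPM against 527 CPM.

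Signs of mixed barcodes were somewhat more frequent among the Siglecf-positive barcodes. The doublet score marked 30 of them (8.20%, 5.6 to 11.5) and 64 of the reference (4.60%, 3.56 to 5.84). Other-lineage genes were also counted with a separate set, which is not the one the gate used and which holds Car4. At least 2 UMIs of that set were present in 39.1% and 25.6%, and in 7.38% and 5.76% when Car4 was not counted. These are counts at full depth, where the Siglecf-positive barcodes were deeper, and the part of depth in them was not tested. Lymphocyte markers summed to 75.8 and 85.9 CPM, monocyte and macrophage markers to 907 and 728 CPM, dendritic cell markers to 206 and 163 CPM, and lung epithelium markers to 106 and 137 CPM. The excess in the monocyte list lay in Csf1r at 128 against 73.3 CPM and Adgre1 at 279 against 154 CPM, and that in the dendritic list in Itgax at 176 against 96.3 CPM. Counts without such barcodes are given beside the calls below.

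The 2 groups were compared over 10716 measured genes, those with at least 10 UMIs over both groups that the gate did not use. A gene was called by size where the ratio of its CPM was at least 2 either way, the interval of the ratio excluded 1.5 and the higher group had at least 30 UMIs. In all 145 genes (1.35%) were called, 85 higher (0.793%) and 60 lower (0.56%) in Siglecf-positive barcodes. Since the groups were split on a gene of the same cells, these values describe the split and are no test of it. The median log2 ratio of all measured genes was 0.26, with 68.6% above 0, so a ratio of 1 lies below the middle of the distribution. Without the barcodes holding 2 or more other-lineage UMIs, 101 genes were higher and 68 lower, but only 28 of the 85 and 43 of the 60 were among them. With Car4 not counted as other-lineage, 110 were higher and 61 lower, with 65 of the 85 and 53 of the 60 among them. Without doublet-scored barcodes 60 of the 85 and 49 of the 60 were called again. Of the 12 higher and 12 lower genes named below, 11 and 11 were past the rule in each direction without other-lineage barcodes. These were 12 and 12 when Car4 was not counted. Of the 85 higher genes 29, and of the 60 lower genes 34, were detected in fewer than 10% of the barcodes of the group where they were higher.

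**Figure D2:**
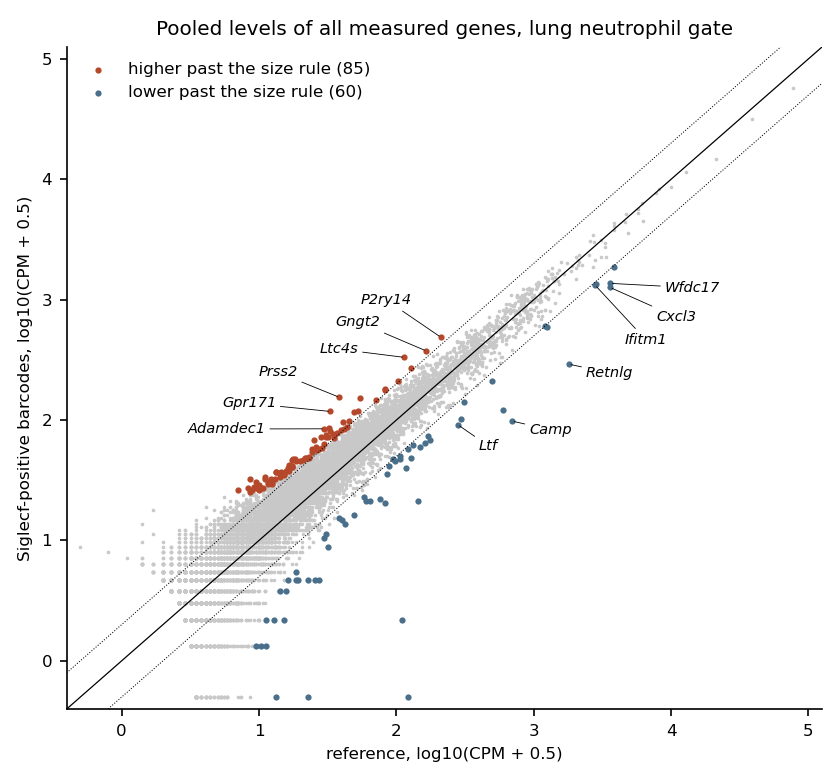
Pooled level of every measured gene in the reference (horizontal) and in Siglecf-positive barcodes (vertical), as log10(CPM + 0.5), with the line of equality solid and 2-fold lines dotted. The 85 genes above and the 60 below past the size rule are coloured, with Ltc4s, P2ry14 and Prss2 above and Retnlg, Cxcl3 and Wfdc17 below.

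Genes of the cysteinyl leukotriene pathway were among the higher genes. Ltc4s, which joins glutathione to leukotriene A4 to make leukotriene C4, stood at 332 CPM in Siglecf-positive barcodes (300 to 366) and 114 CPM in the reference (103 to 126), a ratio of 2.92 (2.53 to 3.37). It was detected in 45.6% and 15.0% of barcodes at full depth, and in 26.9% and 9.50% after thinning. Cysltr1, a receptor for the cysteinyl leukotrienes, stood at 85.0 and 31.7 CPM, a ratio of 2.68 (2.02 to 3.55). Enzyme and receptor were thus both detected more often in the Siglecf-positive barcodes.

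The rest of the 15 measured eicosanoid genes did not pass the size rule, and the median log2 ratio of the list was 0.16. Alox5, the 5-lipoxygenase that starts leukotriene synthesis, stood at 173 against 110 CPM, a log2 ratio of 0.65, and its partner Alox5ap at 998 against 1072 CPM. Lta4h, which leads to leukotriene B4 instead, stood at 53.3 and 47.6 CPM. Of the prostaglandin enzymes, Ptgs1 had a log2 ratio of 0.93 (99.2 against 52.1 CPM) and Ptgs2 one of -0.09 (1418 against 1505 CPM).

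P2ry14, Gpr171 and Gngt2 were also among the higher genes. P2ry14, the receptor for UDP-glucose and related sugars and 1 of the given markers, stood at 488 CPM against 211 CPM, a ratio of 2.31 (2.07 to 2.59). Gpr171, a G protein-coupled receptor whose gene is a direct neighbour of P2ry14, stood at 118 against 32.6 CPM, a ratio of 3.6 (2.79 to 4.67). Of the genes around them, Med12l, within whose span both lie, stood at 298 against 193 CPM (log2 ratio 0.63) and P2ry13 at 45 against 27.5 CPM (0.71), neither past the size rule. Neighbours were read from the RefSeq gene table of GRCm38.p6, another build than the files use, and are given by name only. Gngt2, a gamma subunit of G proteins, stood at 375 against 165 CPM, a ratio of 2.27 (2.00 to 2.58).

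P2ry14 was the only 1 of 15 measured purine receptor and ectoenzyme genes past the size rule, and the list's median log2 ratio was 0.26, the same as that of all genes. Entpd3, a given marker that splits extracellular nucleotides, stood at 379 CPM against 258 CPM (log2 ratio 0.56, interval of the ratio 1.31 to 1.65). Entpd1, which encodes CD39, lay the other way at 359 against 558 CPM. Nt5e, which encodes CD73, stood at 122 and 82.9 CPM.

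The remaining given markers differed less between the groups than P2ry14. Cd177, a surface glycoprotein of neutrophils, stood at 433 CPM in Siglecf-positive and 349 CPM in reference barcodes, a log2 ratio of 0.31, and was not past the size rule. Mmp9, a gelatinase that the gate itself used, stood at 835 and 621 CPM. Outside the neutrophil gate Cd177, Mmp9, Entpd3 and P2ry14 stood at 33.6, 112, 40.9 and 64.4 CPM. Cd177, Entpd3 and P2ry14, which the gate did not use, thus differed more between the gate and the other lung cells than between Siglecf-positive and reference barcodes.

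The other genes named among the higher ones do different things. Prss2, a trypsinogen gene that lies in the T cell receptor beta locus, had the highest ratio among them, 4.06 (3.22 to 5.13), with 154 against 38.0 CPM, but 38.4% of its 185 UMIs came from 5 barcodes. Adamdec1, an ADAM-like protease known from macrophages and dendritic cells, stood at 84.2 against 29.3 CPM, with 39.6% of its UMIs in 5 barcodes, and Bambi, a decoy receptor for TGF-beta family ligands, at 80.0 against 32.6 CPM, with 45.8% in 5 barcodes. H1f0, the linker histone of resting cells, stood at 152 against 54.2 CPM and Fto, an RNA demethylase, at 116 against 48.8 CPM. Otulinl stood at 68.3 against 24.8 CPM, and a gene deposited under the name LIN54 at 96.7 against 40.7 CPM. In the reference 5 barcodes held 42.5%, 57.1% and 30.3% of the Prss2, Adamdec1 and Bambi UMIs, so these genes were concentrated in few barcodes of both groups. Ltc4s, Gngt2 and P2ry14 were found in over 40% of Siglecf-positive barcodes. Even so, 5 of these held 22.6% of the P2ry14 UMIs, and 5 held 29.1% of those of H1f0.

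Siglecf-positive barcodes more often held 1 or more of the 12 named higher genes. After thinning to 1000 UMIs at least 1 of them was detected in 77.3% of 357 Siglecf-positive and 41.1% of 1200 reference barcodes, and at least 2 in 46.2% and 14.3%. The mean number per barcode was 1.53 and 0.614. These 12 were chosen for their difference, so the shares show how the difference spreads over barcodes and nothing more. More frequent detection of each gene alone raises these shares, and joint detection beyond that was not tested.

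Retnlg and some granule genes were lower. Retnlg, a resistin-like hormone gene of neutrophils, stood at 291 CPM in Siglecf-positive barcodes (261 to 323) and 1808 CPM in the reference (1763 to 1854), a ratio of 0.161. It was detected in 11.5% and 27.8% of barcodes after thinning. On the list for secondary and tertiary granules 13 genes outside the gate were measured, of which 5 were lower past the size rule and none was higher. Their median log2 ratio was -0.83, and it ran from -0.86 to -0.27 over the alternatives. The 5 were Camp, Ngp, Ltf, Mmp8 and Padi4, which encode a cathelicidin, a cystatin-like granule protein, lactoferrin, a collagenase and a citrullinating enzyme. Padi4, an enzyme on that list rather than a classical granule protein, rested on 5 against 84 UMIs and stood at a log2 ratio of -0.10 after thinning. In the primary granule list 1 gene was measured, Prtn3, a serine protease, at 38.3 against 17.7 CPM, not past the rule.

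Most of the Camp, Ngp and Ltf difference lay in a handful of barcodes. Camp stood at 97.5 against 698 CPM, Ngp at 120 against 594 CPM and Ltf at 90.8 against 281 CPM. Only 18 reference barcodes (1.29%) and 2 Siglecf-positive barcodes held 5 or more UMIs of Camp and Ngp together, yet those 18 held 99.3% of the reference's Camp UMIs, 96.7% of its Ngp UMIs and 75.7% of its Ltf UMIs. Without these 20 barcodes the log2 ratios were -0.55 for Camp, -0.79 for Ngp and 0.20 for Ltf, so that Ltf changed direction. The lower genes numbered 45 instead of 60 without them, 42 of them among the 60.

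Ly6g and Pglyrp1 lay in the same direction. Ly6g, the classical neutrophil surface marker, stood at 8.33 against 31.1 CPM, with a log2 ratio between -3.87 and -0.41 over the alternatives. Of the ageing and egress genes, Cxcr4, a receptor that rises as neutrophils age, stood at 360 against 310 CPM and Itgax at 176 against 96.3 CPM, neither past the size rule. Pglyrp1, a peptidoglycan-binding granule protein, stood at 209 against 493 CPM, with a log2 ratio between -1.30 and -0.04 over the alternatives.

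Of the stefins, inhibitors of cysteine proteases, 3 listed genes were lower past the size rule. Stfa1 had no UMI in the Siglecf-positive group and 402 in the reference, at least 48.1-fold lower against a floor of 3 UMIs over the group. Stfa3 had none against 74 (at least 8.86-fold lower), and Stfa2 stood at 20.8 against 59.2 CPM. These genes are near-identical copies, among which the counting may split reads, and they were detected in 3.09%, 0.791% and 2.73% of reference barcodes, so few barcodes carry the difference. A further copy, Stfa2l1, stood at 244 against 398 CPM and was not past the rule. The cathepsins they can inhibit were not past the size rule: Ctsl, on which the series title turns, stood at 322 against 303 CPM (log2 ratio 0.09), Ctsb at 374 against 434 CPM and Ctss at 369 against 284 CPM.

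Chemokine genes were lower as a list, with 0 of 14 measured genes above 0 and a median log2 ratio of -0.53, which ran from -1.14 to -0.19 over the alternatives. Cxcl3, which attracts neutrophils through Cxcr2, stood at 1264 against 3608 CPM, a ratio of 0.35 (0.33 to 0.37), and Ccl6 at 1888 against 3824 CPM. Cxcl3 and Ccl6 alone were past the size rule. Cxcl2, the chemokine with the most UMIs, stood at 14661 against 21317 CPM (log2 ratio -0.54), while Ccl3 and Ccl4, macrophage inflammatory proteins, stood at 2959 against 3306 and 2070 against 2154 CPM. Of these chemokines Cxcl3 thus lay farthest from the reference and Ccl4 nearest to it.

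Cytokines and growth factors showed no common direction, with 10 of 18 measured genes above 0 and a median of 0.02. Osm, oncostatin M, stood at 593 against 1246 CPM and was the only 1 past the size rule. Il1b stood at 11467 against 12776 CPM and Tnf at 332 against 296 CPM. Csf1, the macrophage growth factor, stood at 404 against 285 CPM and Vegfa, the vascular growth factor, at 492 against 327 CPM (log2 ratios 0.50 and 0.59), below the rule's 2-fold limit. The 24 genes for hypoxia, glycolysis and angiogenesis, Vegfa among them, had a median of -0.03 and none past it.

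Among immune regulators Cd274, which encodes the checkpoint ligand PD-L1, stood at 665 CPM in Siglecf-positive barcodes and 840 CPM in the reference, a log2 ratio of -0.34. None of the 15 measured checkpoint genes passed the size rule, with Cd80 at 699 against 585 CPM and Arg1 at 245 against 271 CPM. Interferon-stimulated genes had a median log2 ratio of -0.43, with 6 of 23 above 0, but only Ifitm1, a membrane protein that restricts viral entry, was past the rule at 1318 against 2810 CPM. MHC class II genes had a median of -0.35, and MHC class I genes one of 0.22.

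The other genes named among the lower ones have different functions. Wfdc17, a small secreted protein of activated phagocytes, stood at 1368 against 3618 CPM, a ratio of 0.38 (0.36 to 0.40), and S100a6, a calcium-binding protein, at 1359 against 2869 CPM. F3, tissue factor, which starts coagulation, stood at 64.2 against 162 CPM and Gk, glycerol kinase, at 67.5 against 174 CPM. Asprv1, Chil1 and Rdh12, an aspartic protease, a chitinase-like protein and a retinol dehydrogenase, stood at 102 against 295, 48.3 against 128 and 59.2 against 148 CPM.

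Single genes of other lists passed the size rule. Plet1 was higher at 81.7 against 39.2 CPM, but it was found in 5.46% of Siglecf-positive barcodes, and its direction turned in 3 alternatives. Mki67, a proliferation marker, stood at 1.67 against 14.7 CPM, with a log2 ratio between -3.99 and 0 over the alternatives. Fscn1 and Ly6c2, of migratory dendritic cells and of classical monocytes, stood at 1.67 against 12.3 and 13.3 against 41.6 CPM, and Ly6c2 turned to a log2 ratio of 0.94 among Ccl3-high barcodes. In the Siglec family Cd33 and Siglece, inhibitory lectins of myeloid cells, stood at 408 against 437 CPM and 253 against 211 CPM, and no Siglec gene besides Siglecf passed the size rule. Lists for NF-kB, immediate early, survival, reactive oxygen, lipid, iron, lectin receptor, Toll-like receptor, cytokine receptor and transcription factor genes had no gene past the rule, with medians from -0.34 to 0.19. In the protease list Adamdec1 was higher and Mmp8 lower, with a median of -0.37.

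**Figure D3:**
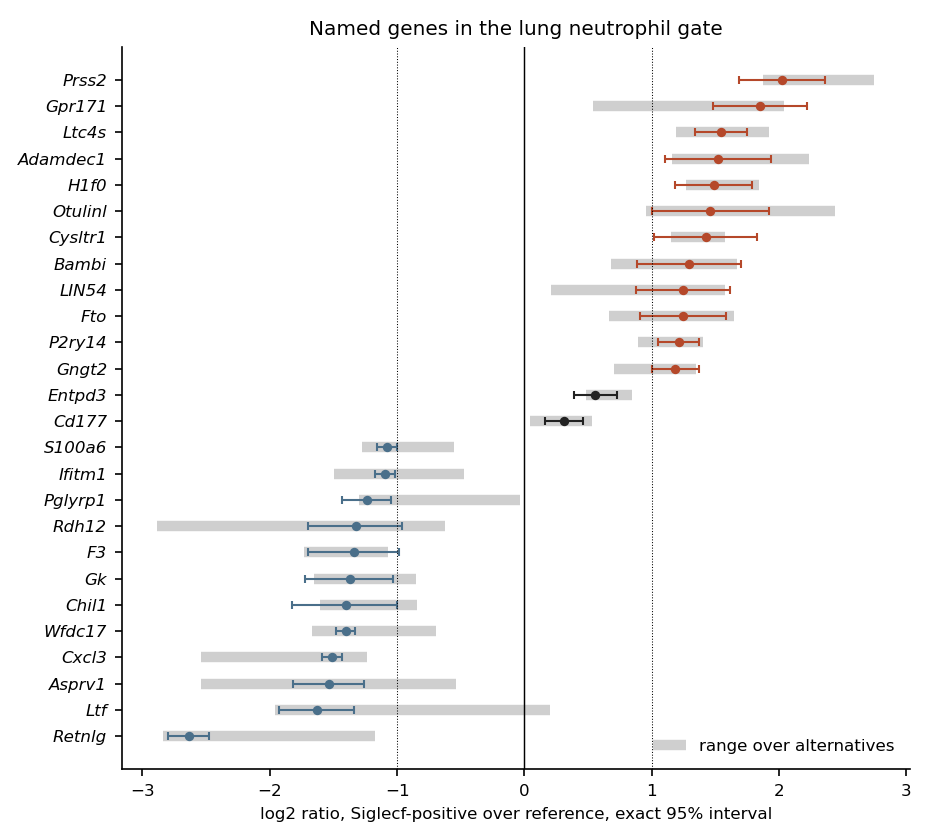
Log2 ratio of Siglecf-positive over reference barcodes for the named genes and the given markers Entpd3 and Cd177; points are the pooled ratio, thin bars its exact 95% interval and grey bars the range over 17 alternative settings. The 12 higher genes stay above 0 throughout, and of the lower genes Ltf alone crosses 0.

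Some of these genes differed in steps with the number of Siglecf UMIs. Ltc4s stood at 114, 267, 372 and 521 CPM in barcodes with 0, 1, 2 and 3 or more Siglecf UMIs. Cxcl3 stood at 3608, 1679, 680 and 532 CPM, and Wfdc17 at 3618, 1514, 1257 and 968 CPM. Fto, at 48.8, 91.9, 131 and 186 CPM, and Vegfa, at 327, 430, 499 and 718 CPM, also stood higher at each step, and Cxcl2, at 21317, 16249, 13845 and 9728 CPM, lower. Others did not: P2ry14 stood at 211, 468, 559 and 457 CPM, and Cysltr1 at 31.7, 90.5, 77.9 and 74.4 CPM. The intervals of Ltc4s and Fto overlapped between 1 and 2 and between 2 and 3 or more Siglecf UMIs. Those of Vegfa overlapped between 1 and 2, and those of Cxcl3 between 2 and 3 or more.

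The steps of Ltc4s, Cxcl3 and Cxcl2 were also present within 1 range of depth. Among barcodes with 2000 to under 5000 UMIs the medians were 2758, 2988 and 2976 UMIs for 0, 1 and 2 or more Siglecf UMIs. There Ltc4s stood at 116, 299 and 516 CPM, Cxcl3 at 3924, 1568 and 656 CPM and Cxcl2 at 23306, 16570 and 11608 CPM. Fto stood at 50.9, 106 and 163 CPM in that range. Vegfa stood at 372 (343 to 401), 405 (344 to 472) and 686 CPM (590 to 794), so its first step lay within counting error. In shallow, middle and deep barcodes, cut so that each holds 122 Siglecf-positive barcodes, Ltc4s stood at 310, 333 and 337 CPM in Siglecf-positive barcodes and at 106, 117 and 119 CPM in reference barcodes of the same limits. Ltc4s was therefore about as far apart in shallow as in deep barcodes.

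**Figure D4:**
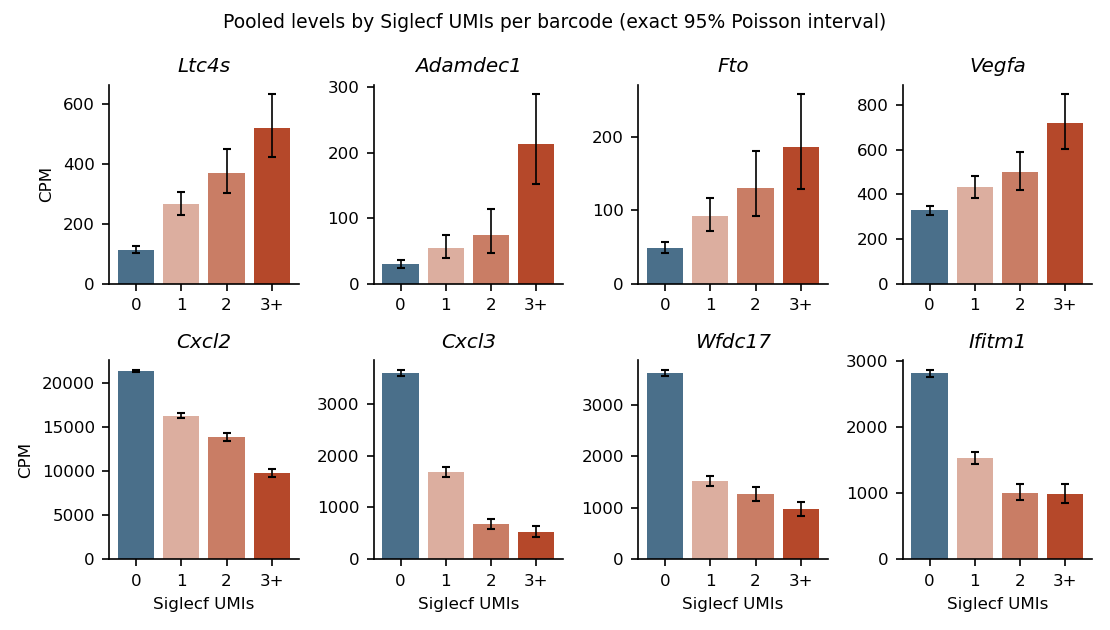
Pooled level in CPM of 8 genes, picked after their values were seen, in gate barcodes with 0 (n = 1390), 1 (n = 231), 2 (n = 85) and 3 or more (n = 50) Siglecf UMIs, with exact 95% Poisson intervals. Ltc4s runs from 114 to 521 CPM and Cxcl2 from 21317 to 9728 CPM.

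Siglecf-positive barcodes were spread over the chemokine states of the gate. States were cut at 0.2% of UMIs for each gene and are ranges of a level, not cell types. Of the Siglecf-positive barcodes 41.0% were Ccl3-high, 36.6% were Cxcl2-high and Ccl3-low, and 22.4% were low for both. The reference held 33.6%, 51.8% and 14.6%. Retnlg-high barcodes made up 3.83% (2.11 to 6.33) and 13.7% (11.97 to 15.7). Within a factor of 2 of the Ccl3 limit lay 105 Siglecf-positive and 308 reference barcodes, of the Cxcl2 limit 49 and 188, and of the Retnlg limit 18 and 156.

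Read the other way, the Siglecf-positive share differed between states by more than its counting error. It was 6.83% (3.78 to 11.2) of 205 Retnlg-high barcodes and 28.8% (23.6 to 34.4) of 285 barcodes low for Cxcl2 and Ccl3, with medians of 2270 and 2046 UMIs. After thinning the shares were 4.37% (1.91 to 8.43) and 21.8% (16.7 to 27.6). Ccl3-high and Cxcl2-high Ccl3-low barcodes lay between, at 11.5% and 7.76% after thinning. Barcodes low for both chemokines thus held Siglecf most often.

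**Figure D5:**
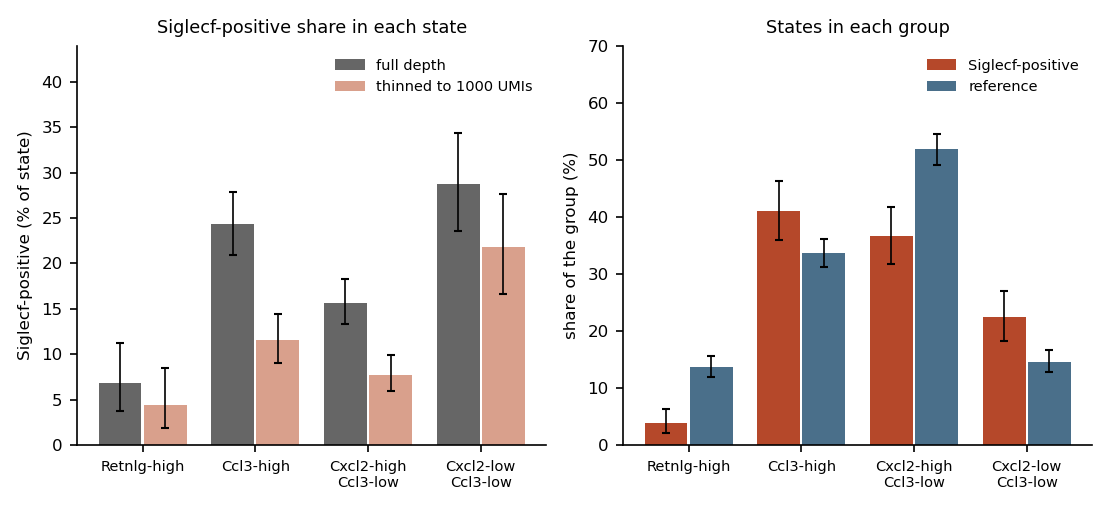
Left, share of each state that is Siglecf-positive, at full depth and thinned to 1000 UMIs; right, share of Siglecf-positive and of reference barcodes in each state; bars are percentages with exact 95% intervals, and Retnlg-high overlaps the other states. The thinned share is 4.37% in Retnlg-high and 21.8% in Cxcl2-low Ccl3-low barcodes.

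All 12 named higher genes had a log2 ratio above 0 among Ccl3-high barcodes, and 8 were past the size rule there. In that state 12 of the 85 higher and 17 of the 60 lower genes were called again. Among Ccl3-high barcodes, 150 Siglecf-positive and 467 reference, Ltc4s stood at 246 against 98.1 CPM, P2ry14 at 603 against 324 CPM and Prss2 at 126 against 25.4 CPM. Among barcodes low for both chemokines, 82 and 203, Ltc4s stood at 555 against 199 CPM, P2ry14 at 476 against 155 CPM and Prss2 at 302 against 94.9 CPM. Cxcl3 was lower in Ccl3-high Siglecf-positive barcodes, at 2104 against 5541 CPM. With Retnlg-high barcodes left out of both groups, 55 of the 85 higher and 38 of the 60 lower genes were still past the size rule.

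The same gate in the muscle library took 52 of 2243 kept barcodes, and 1 of them had a Siglecf UMI (1.92%, 0.0487 to 10.3). Thinned to 1000 UMIs, 1 of 51 muscle barcodes was positive against 175 of 1557 in lung. The muscle gate held 3 Ltc4s UMIs (15.1 CPM, 3.11 to 44.1), 1 P2ry14 UMI and 2089 Retnlg UMIs (10497 CPM). Tissue and library cannot be told apart here, and 64 barcode sequences occur in both libraries, 15 of them in the lung gate and 1 among the Siglecf-positive barcodes. The muscle gate barcodes therefore lie on the Retnlg-high, Ltc4s-low side of the lung gate, with 52 barcodes behind that value.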

How the data were processed

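The authors deposited unnormalized UMI counts in a gene by barcode matrix. The submitters' processing notes name Cell Ranger 7.0.1 and GRCm39, while annotation release and intron counting are not given in the sources used here. Depth was 34751225 UMIs in lung, 1199992 of them in Siglecf-positive and 3342413 in reference barcodes, and precision is carried by each interval. Counts were summed per group; intervals are Poisson (levels), conditional binomial (ratios) and Clopper-Pearson (shares), with scipy 1.17.1, numpy 2.4.6, pandas 2.3.3 and scikit-learn 1.9.0. The size rule was tested on simulated counts. Doublets were scored by simulated pairs among 45 neighbours, which marked 556 of 8194 barcodes; they were kept and left out as an alternative.

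Named genes are the 12 higher and 12 lower genes past the size rule whose interval lay farthest from 1, found in 10% of barcodes of the higher group, without rule, mitochondrial, ribosomal, rRNA-like, receptor-variable and unnamed genes, plus the given markers and list members past the rule or with the most UMIs; others are named for their role, after their values were seen. The members, 36 gene lists and rules were chosen with earlier results of these data known. Azu2 and BC100530 were not found under those names. In all 13 planned and 4 added alternatives were run. Some results are not reported here.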

Additional observations from a re-analysis of the deposited data

How the results depend on the processing

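No paired analysis was possible because each tissue has 1 library. The Siglecf-positive share of 20.8% became 11.4% with the gate applied anew to barcodes thinned to 1000 UMIs, 7.69% with 2 or more Siglecf UMIs, 17.7% without other-lineage barcodes, 22.9% at 1000 or more UMIs and 24.3% among Ccl3-high barcodes, and stayed within its interval under 8 other settings. The 85 higher genes became 11 thinned (7 of them among the 85), 294 by the mean over barcodes, which carries no interval, 155 with a minimum of 10 UMIs and 30 among Ccl3-high barcodes (12 of the 85). With 2 or more Siglecf UMIs 94 were higher, 30 of them among the 85, and without other-lineage barcodes 101, with 28 of the 85, so that like counts hold largely different genes. When Car4 was not counted as other-lineage, 110 were higher, 65 of them among the 85. The 60 lower genes became 98 with 2 or more Siglecf UMIs (40 of the 60), 214 by the mean over barcodes and 29 among Ccl3-high barcodes. The 12 named higher genes stayed above 0 under all 17 alternatives and 4 of them passed the size rule thinned. The 12 named lower genes stayed below 0 under all but 1, without barcodes holding Camp and Ngp, where Ltf stood at 0.20, and 6 passed the rule thinned. Plet1 stood at -0.16 thinned, at -1.77 without other-lineage barcodes and at -0.49 when Car4 was not counted, and Ly6c2 at 0.94 among Ccl3-high barcodes. List medians that changed sign included lung epithelium (0.0824 thinned, 0.15 without other-lineage barcodes), eosinophil (0.0371 without doublet-scored barcodes, 0.49 without the deepest 1%) and MHC class II genes (0.13 among Ccl3-high barcodes). Several other list medians also crossed 0 over the alternatives. Among them were alveolar macrophage markers (-0.67 to 0.28), monocyte and macrophage markers (-0.29 to 0.55), cell cycle genes (-0.37 to 0.49) and purine genes (-0.36 to 0.55). The causes were not tested. Thinning left 191 Siglecf-positive and 1483 reference barcodes. Barcodes that lost their Siglecf UMIs in thinning were counted as reference there. Both the smaller group and this mixing limit what thinned ratios can show. The alternatives on Ccl3, Retnlg, Car4, and Camp and Ngp were chosen after seeing the data.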

Other observations

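Nuclear genes for mitochondrial and protein-making machinery stood higher in Siglecf-positive barcodes as families. These families were picked after the called genes had been seen. Of 48 measured complex I subunits (Nduf genes), which feed electrons into respiration, 47 had a log2 ratio above 0, with a median of 0.54, and Ndufb3 (179 against 82.9 CPM) and Ndufa11 (178 against 82.6 CPM) were past the size rule. ATP synthase subunits had a median of 0.54 (17 of 17 above 0), cytochrome c oxidase subunits 0.61 (13 of 14) and mitochondrial ribosomal proteins 0.65 (75 of 79), beside 0.26 and 68.6% for all measured genes. The 13 mitochondrially encoded genes had a median of 0.03, with 7 above 0. Over the 17 alternatives the medians ran from 0.43 to 0.68 for complex I, from 0.48 to 0.66 for ATP synthase, from 0.46 to 0.72 for cytochrome c oxidase and from 0.37 to 0.78 for mitochondrial ribosomal proteins. The lowest value of the last was that after thinning, where 42 of 69 genes lay above 0.

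Cytosolic ribosomal proteins summed to 70693 against 55986 CPM, with a median log2 ratio of 0.35 and 80 of 82 above 0, and proteasome subunits had a median of 0.47. With the reference weighted to the depth of Siglecf-positive barcodes the ribosomal median was 0.22 beside 0.21 for all measured genes, so that it no longer stood above them, and the complex I median was 0.47. Without doublet-scored barcodes the ribosomal median was 0.37, and with mitochondrial, ribosomal and rRNA-like UMIs left out of the totals it was 0.34. At an equal depth of 1000 UMIs the Siglecf-positive barcodes held a median of 596 genes (553 to 635, quartiles) and the reference 524 (477 to 581). Rn18s, an rRNA-like gene, took a median of 5.7% and 7.5% of their UMIs. Siglecf-positive barcodes thus spread the same number of UMIs over more genes.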
